A study of Mus musculus with 6 samples.

Results

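The genes described here are interferon-stimulated genes and the sensors and transcription factors that switch them on, read in sorted mouse elongating spermatids that carried lentiviral vectors. The members were 33 listed gene symbols, and each was represented by the probe set that names 1 gene and has the highest mean log2 signal over the 4 arrays of spermatids with a short hairpin RNA. Of the 33, 31 had such a probe set, out of 18193 genes with one on the array. Isg15 and Ifi44 were not analysed here. The groups were spermatids with a hairpin named for Miwi (shMiwi, the PIWI protein gene Piwil1), spermatids with a hairpin named for Caf1 (shCaf1, taken here as the deadenylase gene Cnot7), and spermatids with the empty pSilencer vector (control). Each group held 2 arrays, biological replicates by their labels; whether they came from separate animals is not stated, so p-values measure the spread between these arrays, which may be technical. All 6 arrays came from testes of ICR mice, an outbred strain labelled wildtype, transduced at 5 weeks of age with GFP vectors. After 1 week the elongating spermatids that carried GFP, the cells in which the sperm head and tail take shape, were sorted out of the germ cells. The control vector is lentiviral too, and no untransduced spermatids were analysed here, so every group had met a vector.

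A cell that detects viral RNA, or double-stranded RNA of its own, does so through the cytosolic helicases RIG-I and MDA5, the endosomal receptor TLR3 and the kinase PKR. The helicases signal through the transcription factor IRF3 to type I interferon, and interferon acts back on cells through STAT and IRF proteins to induce a large set of antiviral effectors. A hairpin and a lentivirus both bring RNA that such sensors can meet, and the question was whether antiviral genes were raised. Male germ cells are known for weak interferon responses compared with the somatic cells around them.

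Array quality bears on every value below. Relative to the shRNA mean, the 18 hybridization control probe sets, which read RNAs added to the hybridization mix, stood at 0.806-fold to 1.20-fold on single shRNA arrays, at 82.3-fold on control 1 and at 16.2-fold on control 2. Every deposited array had the same trimmed mean of 500. Of 14 elongating spermatid markers (protamines, transition proteins, fibrous sheath genes and others), 13 lay above the 95th percentile of genes restricted to other organs on all 4 shRNA arrays and 13 did on control 2, but 0 on control 1, where Prm1 read 66.1. Control 1 thus went against its label, and the control arrays are given one by one. The targeted genes were far from the shRNA arrays in both controls: Piwil1 read 9780 and 10392 in shMiwi, 21881 and 22442 in shCaf1, and 1445360 and 292542 in control, and Cnot7 read 4365 and 5012 in shMiwi, 3633 and 4330 in shCaf1, and 2003570 and 188877 in control.

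In shRNA-transduced spermatids these genes were bright less often than genes at large, though their median lay near the middle of each array. No detection calls were used here, so 27 genes restricted to other organs (such as Alb, the albumin gene) served as a yardstick for how bright a probe set can be without its transcript. Their 75th percentile lay between 64.7 and 91.8 on the shRNA arrays and their 95th percentile between 742 and 854. That upper level rests on 3 of them, Myh6, Pomc and Actn3, which may not be silent here. The 95th percentile was 1274 on control 1 and 1542 on control 2, and counts on an array use its own level. Signals of different probe sets depend on their probes, so these levels describe probe sets and do not order transcripts. On all 4 shRNA arrays, 3 of 31 members lay above the upper level (9.68%, against 27.7% of all 18193 genes) and 14 above the lower one (45.2%, against 63.9%), while 9 stayed at or below the lower one on every shRNA array. The members' median percentile within an array was 49.0 and 52.1 in shMiwi and 56.7 and 52.6 in shCaf1.

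**Figure D1:**
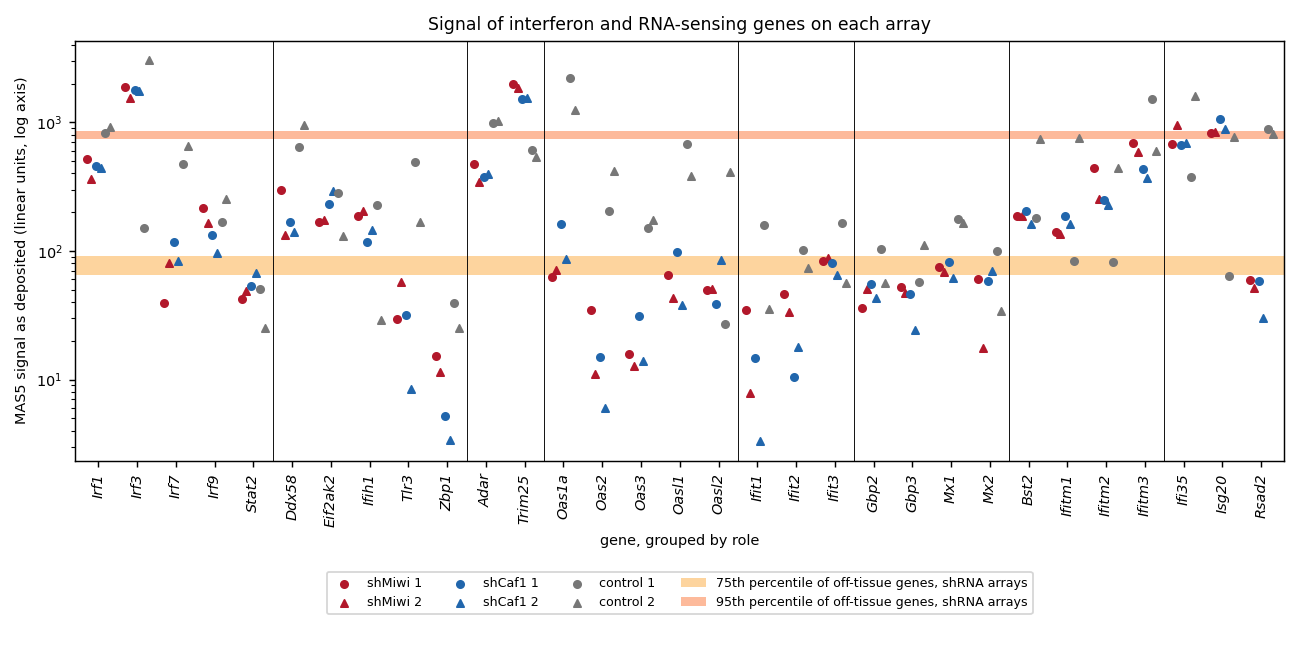
Deposited MAS5 signal (linear units on a log axis) of 31 interferon and RNA-sensing genes, grouped by role, 1 point per array (circles replicate 1, triangles replicate 2). Bands span the 75th and 95th percentiles of 27 off-tissue genes over the shRNA arrays; Irf3, Trim25 and Isg20 lie above the 95th percentile of each shRNA array, and the Oas, Ifit, Mx and Gbp genes read between 3.3 and 161 there.

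Markers of other testis cells stood beside these values. Earlier germ cells were the brightest: 8 of 8 round spermatid markers and 6 of 8 pachytene spermatocyte markers lay above the upper off-tissue level on all 4 shRNA arrays. On control 1 it was 1 and 0 of them, and on control 2 it was 5 and 2, by the higher levels of those arrays (1274 and 1542). The pachytene sums were 75860 and 76610 in shMiwi, 74080 and 80380 in shCaf1, and 2194 and 117700 in control. Sycp3, a meiotic chromosome axis gene, read 10835 and 11593 in shMiwi, 9641 and 10500 in shCaf1, and 24.6 and 362 in control. The shRNA arrays thus carried meiotic and round spermatid transcripts beside those of the labelled stage. Of 6 peritubular myoid markers 2 lay above that level on all 4 shRNA arrays, 3 on control 1 and 2 on control 2. Of 15 macrophage and monocyte markers, 4 (Csf1r, Lyz2, Mrc1 and Aif1) lay above the upper off-tissue level on all 4 shRNA arrays, and 0 on control 1 and 1 on control 2. Their summed signal was 13190 and 13570 in shMiwi, 15600 and 15320 in shCaf1, and 4970 and 8599 in control. The leukocyte marker Ptprc was dim, at 77.6 and 67.0 in shMiwi, 54.0 and 33.3 in shCaf1, and 31.1 and 15.3 in control, and none of the 15 was at 0. Of 8 endothelial markers 0 lay above that level on the shRNA arrays and 2 on control 1, with sums of 852 and 775 in shMiwi, 740 and 812 in shCaf1, and 6597 and 2740 in control. For Sertoli cells it was 4 of 10 markers, with sums from 44040 to 46840 in shMiwi, from 48020 to 49230 in shCaf1, and of 5786 and 40360 in control; for Leydig cells 3 of 5, with sums from 23920 to 24460 in shMiwi, from 20280 to 20510 in shCaf1, and of 4130 and 5451 in control. Of 7 T and NK cell markers, 1 (Cd3d) did, with sums of 999 and 995 in shMiwi, 1529 and 1547 in shCaf1, and 2774 and 1377 in control. The part of these cell types in the members' signals was not tested, and in a bulk sample fewer cells and less RNA per cell cannot be told apart.

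Among the transcription factors, Irf3, which RNA sensors activate without new transcription, read 1891 and 1536 in shMiwi, 1769 and 1736 in shCaf1, and 152 and 3058 in control. The shMiwi and shCaf1 arrays overlapped, and they lay between the control arrays. Its probe set is of a kind that can cross-hybridise, and its 4 probe sets did not share a sign between shMiwi and shCaf1. Against control they differed as well. A second one, singled out after its values were seen, read 434 and 424 in shMiwi, 398 and 370 in shCaf1, and 60.7 and 76.2 in control, and it passed in limma as higher in shMiwi (2.40, adjusted p = 0.00634) and in shCaf1 (2.25, adjusted p = 0.00782). Irf1, an interferon-gamma-induced factor, read 517 and 360 in shMiwi, 456 and 441 in shCaf1, and 822 and 926 in control. Irf9, the DNA-binding part of the interferon-activated complex ISGF3, read 215 and 166 in shMiwi, 134 and 95.7 in shCaf1, and 168 and 255 in control. Both shMiwi arrays were thus above both shCaf1 arrays for Irf9. Irf7, which interferon itself induces and which then amplifies the response, read 39.1 and 79.9 in shMiwi, 117 and 82.9 in shCaf1, and 470 and 649 in control. Stat2, the partner of Irf9 in ISGF3, stayed between 42.5 and 67.1 on the shRNA arrays, and at 50.3 and 25.2 on the control arrays.

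Of the 5 sensors, 3 lay above the lower off-tissue level on every shRNA array and 2 on none, and 0 lay above the upper level on any. Ddx58, which encodes RIG-I, read 298 and 132 in shMiwi, 166 and 139 in shCaf1, and 646 and 945 in control. Ifih1, which encodes MDA5, read 185 and 203 in shMiwi, 118 and 146 in shCaf1, and 226 and 29.2 in control. Eif2ak2, the gene of PKR that halts translation on binding double-stranded RNA, read 166 and 174 in shMiwi, 230 and 290 in shCaf1, and 281 and 130 in control. For both of these the shMiwi and shCaf1 arrays did not overlap, Ifih1 being higher and Eif2ak2 lower in shMiwi. The other probe sets of Eif2ak2 went the other way, at log2 differences of 0.35 each. Tlr3 stayed between 8.4 and 57.6 on the shRNA arrays and Zbp1, a sensor of Z-form nucleic acids, between 3.4 and 15.1, all below the lower off-tissue level.

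Genes that act beside the sensors, and the effector Isg20, were brighter. Trim25, a ubiquitin ligase that acts on RIG-I, read 1985 and 1830 in shMiwi, 1523 and 1540 in shCaf1, and 610 and 536 in control. On the deposited scale it was one of 2 members, with Isg20, above both control arrays on every shRNA array (17.4% of all probe sets were). Adar, the enzyme that edits adenosine to inosine in double-stranded RNA, read 475 and 344 in shMiwi, 377 and 393 in shCaf1, and 985 and 1027 in control. Isg20, an exonuclease that degrades RNA, read 828 and 835 in shMiwi, 1065 and 889 in shCaf1, and 63.3 and 766 in control.

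Among the effectors, the Oas, Ifit, Mx and Gbp genes and Rsad2 were dim. These 13 genes read between 3.3 and 161 on the shRNA arrays, and 0 of 13 lay above the lower off-tissue level on all 4 of them. Oas proteins make the second messenger that activates RNase L, Ifit proteins bind foreign RNA ends, and Mx and Gbp proteins are antiviral GTPases. Oas1a read 63.0 and 70.9 in shMiwi, 161 and 86.1 in shCaf1, and 2212 and 1235 in control. Ifit1 read 34.8 and 7.8 in shMiwi, 14.6 and 3.3 in shCaf1, and 160 and 35.5 in control. Rsad2, which encodes the antiviral enzyme viperin, read 59.4 and 51.4 in shMiwi, 58.1 and 30.2 in shCaf1, and 889 and 806 in control. For all 3 genes every shRNA array was below both control arrays on the deposited scale, as were 10 of the 13 (50.1% of all probe sets were). Ifit3 was an exception, at 84.1 and 87.7 in shMiwi, 79.9 and 64.5 in shCaf1, and 164 and 56.6 in control. As percentiles within each array Ifit1 overlapped the controls, at 33.2 and 12.2 in shMiwi, 18.1 and 5.5 in shCaf1, and 37.0 and 15.4 in control. On the scale of the hybridization controls 0 members were lower (0.351% of all probe sets). Oas1a, Ifit3 and Gbp3 have close paralogs, and cross-hybridisation with them was not tested.

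The membrane-bound effectors, 4 of 4, lay above the lower off-tissue level on every shRNA array, and 0 of 4 above the upper one on any. Ifitm3 (fragilis), which blocks virus entry and is also known as a marker of primordial germ cells, read 686 and 583 in shMiwi, 432 and 368 in shCaf1, and 1513 and 603 in control. Ifitm2 read 437 and 254 in shMiwi, 250 and 227 in shCaf1, and 81.6 and 442 in control. Ifitm1 ranged from 135 to 185 and Bst2 (tetherin, which holds budding virions at the cell surface) from 163 to 203 on the shRNA arrays. For Ifitm2 and Ifitm3 both shMiwi arrays lay above both shCaf1 arrays, for Ifitm2 only at 254 against 250. Besides Irf9 and Ifih1, the same held for Trim25, Ifit2, Ifit3, Gbp3 and Zbp1. Both shMiwi arrays lay below both shCaf1 arrays for Irf7, Stat2, Oas1a, Isg20 and Ifitm1, as for Eif2ak2. The share of all probe sets ordered in this way was not counted, so these orderings are descriptions. Ifi35, an interferon-induced leucine zipper protein gene, read 679 and 955 in shMiwi, 661 and 690 in shCaf1, and 378 and 1590 in control.

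Promoters of both dim and brighter members carry the interferon-stimulated response element, the sequence that ISGF3 binds, and several are printed to show it. The RefSeq promoter table (GRCm38.p6, 250 bases before to 50 after each start site) held 29 of the 33 listed genes, 27 of them measured. The core motif, GAAA and GAAA with any 2 bases between them, was searched on both strands, with overlapping matches counted. It was found for 14 of these 27 (51.9%), against 3.99% of all 27025 genes in the table, and in 3.44% of all promoters. The gamma-activated motif TTCNNNGAA, its own reverse complement, was found for 9 of 27 (33.3%), against 9.55% of all genes and 8.30% of all promoters. On Bst2 and Oas1a the core matches overlap each other. Matches are in capitals below, 5′ to 3′ on the gene's strand, and end before the start site. They are at chr19:34640760-34640838 (Ifit1, plus strand), chr19:34583348-34583441 (Ifit3, plus), chr5:120907526-120907570 (Oas1a, minus), chr5:120777700-120777759 (Oas3, minus), chr12:26456538-26456597 (Rsad2, minus), chr8:71537562-71537627 (Bst2, minus) and chr11:53769899-53769957 (Irf1, plus, with the gamma-activated motif).
Ifit1: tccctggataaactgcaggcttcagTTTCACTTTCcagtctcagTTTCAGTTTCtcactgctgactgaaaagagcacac
Ifit3: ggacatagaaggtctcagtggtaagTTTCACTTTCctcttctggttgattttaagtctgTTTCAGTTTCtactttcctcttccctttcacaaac
Oas1a: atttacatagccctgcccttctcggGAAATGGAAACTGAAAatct
Oas3: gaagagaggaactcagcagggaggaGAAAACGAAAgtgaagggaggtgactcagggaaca
Rsad2: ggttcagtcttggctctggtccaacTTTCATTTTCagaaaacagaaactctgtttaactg
Bst2: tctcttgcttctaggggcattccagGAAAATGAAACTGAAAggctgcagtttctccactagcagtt
Irf1: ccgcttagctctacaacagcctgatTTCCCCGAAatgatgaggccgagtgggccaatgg

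The 14 members with the core motif had mean percentiles over the shRNA arrays between 17.2 and 76.5 (median 51.5), and 0 of them lay above the upper off-tissue level on all 4. The 13 without it ranged from 27.5 to 89.8 (median 61.0) and included the 3 that did, Irf3, Isg20 and Trim25. These are descriptions, and a match says nothing of whether a factor bound there.

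shMiwi and shCaf1 spermatids were compared next, because these 4 arrays resembled each other (Pearson's r across 45037 probe sets from 0.969 to 0.979 on the log2 scale) and carried spermatid markers. Cell markers differed between them too. The summed elongating spermatid signal was 152000 and 142000 in shMiwi and 214300 and 233600 in shCaf1, and the round spermatid sum was 50440 and 51900 in shMiwi and 63860 and 65110 in shCaf1. Single somatic markers went both ways. Mrc1 of macrophages was higher in shMiwi, at 1852 and 1928 against 1128 and 1206 in shCaf1. So was the peritubular myoid marker Tagln, at 377 and 384 in shMiwi and 185 and 209 in shCaf1. Acta2, Myh11 and Cnn1 of the same list were higher in shMiwi too. Aif1 of macrophages was lower in shMiwi, at 4410 and 4975 against 7098 and 7442 in shCaf1. Lower too was Actg2, at 1703 and 1557 in shMiwi and 2908 and 2832 in shCaf1. Actg2 alone of the peritubular myoid markers had both shMiwi arrays below both shCaf1 arrays, and for Des the arrays overlapped. The part of these differences in the values below was not tested. None of the 24 members that passed the filter on low signal differed between them in limma at an adjusted p under 0.05, where 7.09% of all 27022 probe sets tested did. At an unadjusted p under 0.05 there were 5 of 24, and 24.6% of all probe sets. The log2 differences of these 24, shMiwi minus shCaf1, ran from -0.70 to 0.67 with a median of -0.02, and 12 were above and 12 below 0; the median of all probe sets was 0.02. The other 7 members (Ifit1, Ifit2, Gbp3, Tlr3, Zbp1, Oas2 and Oas3) were too dim to be tested.

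**Figure D2:**
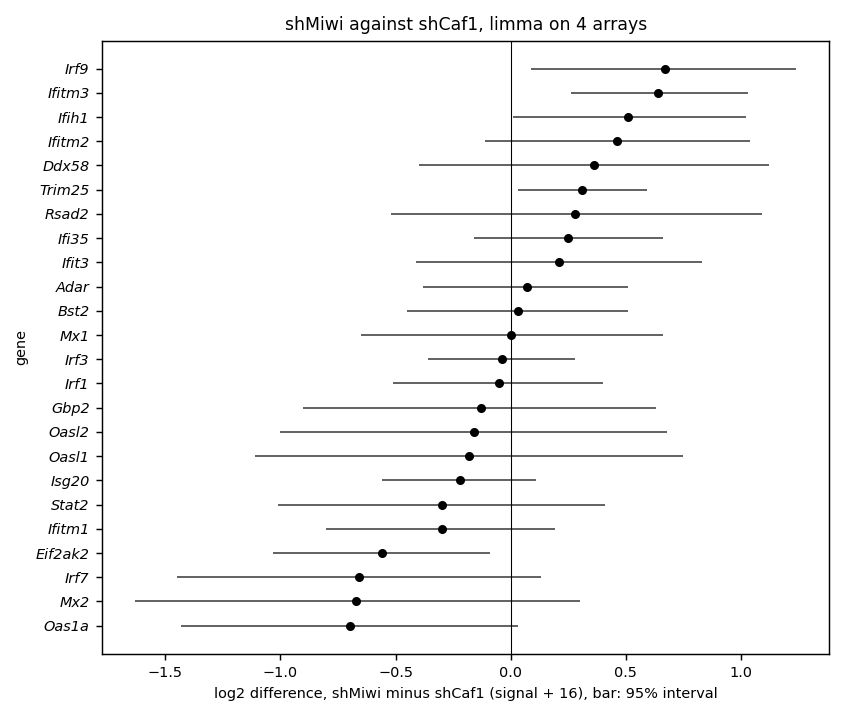
Log2 difference of signal + 16, shMiwi minus shCaf1 (horizontal axis), for the 24 members tested in limma on 4 arrays, with 95% intervals as bars. The points lie between -0.70 and 0.67; the interval of 5 genes leaves out 0 before adjustment, and no gene passed after it.

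Ifitm3 came closest, at a log2 difference of 0.64 (95% interval 0.26 to 1.03, limma adjusted p = 0.0565, n = 2 per group). Irf9 differed by 0.67 (0.09 to 1.24, adjusted p = 0.144), Ifih1 by 0.51 (0.01 to 1.02, adjusted p = 0.195) and Eif2ak2 by -0.56 (-1.03 to -0.09, adjusted p = 0.137). These intervals are wide, so the values do not show that the groups were alike. The other probe sets of Eif2ak2 differed by 0.35 each, against the sign of the one that stands for it. Bright genes had narrower intervals: Irf3 differed by -0.04 (-0.36 to 0.28) and Isg20 by -0.22 (-0.56 to 0.11). For Oas1a the interval ran from -1.43 to 0.03 and for Mx2, an antiviral GTPase gene, from -1.63 to 0.30. Without shMiwi replicate 2, Ifitm3 (0.76, adjusted p = 0.0319) and Ifitm2 (0.83, adjusted p = 0.0389) passed as higher in shMiwi, with the lone shMiwi array assumed to vary like the others.

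Probe sets of 1 gene did not always give the same answer. Of 11 members with several, 3 (Adar, Rsad2 and Tlr3) had differences of 1 sign across all of them. Trim25 is the clearest case: the probe set that stands for it showed 0.31 (adjusted p = 0.157). Another, at 1256 and 1174 in shMiwi and 745 and 752 in shCaf1, showed 0.69 and passed (adjusted p = 0.0261), and the last showed -0.03 (adjusted p = 0.959). This second probe set was picked out after its value was seen. On the scale of the hybridization controls 7 members passed as higher in shMiwi (Irf9, Ifih1, Ddx58, Trim25, Ifitm2, Ifitm3 and Ifi35), where 7396 of all 27022 probe sets passed (27.4%), 7132 of them higher, and the median of all was 0.39.

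The rest of the pathway was covered by 84 measured genes in 5 lists, of which 72 were tested and 3 passed between shMiwi and shCaf1, 2 higher (3.70% of all probe sets were) and 1 lower (3.39%). Of 12 interferon ligands and receptors, 0 lay above the upper off-tissue level on all 4 shRNA arrays and 0 of 8 tested passed; the brightest was Ifngr1, a chain of the interferon-gamma receptor, at 455 and 701 in shMiwi and 655 and 610 in shCaf1. Of 13 genes of receptor signalling and its brakes, 1 was higher and 1 lower. Jak1, a kinase of interferon receptors, read 2196 and 2612 in shMiwi and 1607 and 1554 in shCaf1, a log2 difference of 0.59 (SE 0.13, limma adjusted p = 0.0362). Pias1, an inhibitor of STAT proteins, read 2120 and 1838 in shMiwi and 2809 and 2863 in shCaf1 (-0.52, SE 0.12, adjusted p = 0.0431). In both cases the arrays of the 2 groups did not overlap.

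Of 12 tested adaptors and kinases of the sensors, 0 passed; Tbk1, the kinase that phosphorylates IRF3, read 2461 and 2904 in shMiwi and 2011 and 2235 in shCaf1 (0.33, adjusted p = 0.161). Proteins that bind or process double-stranded RNA formed the brightest list, with 9 of 13 above the upper off-tissue level on all 4 shRNA arrays and 0 of 13 passing. Adad1, a testis-specific relative of Adar, led it at 9390 and 9352 in shMiwi and 11037 and 11880 in shCaf1 (-0.29, adjusted p = 0.114). Among 33 other interferon-induced genes, 3 lay above that level, and 1 of 26 tested passed. That gene was Ifi27, at 2136 and 1986 in shMiwi and 1331 and 1140 in shCaf1 (0.73, SE 0.13, adjusted p = 0.0208); the brightest, Parp12, an ADP-ribosyltransferase gene, differed by 0.33 (adjusted p = 0.109). These calls depended on single arrays: 0 of the 72 passed without shCaf1 replicate 2 (0.77% of all probe sets did), 2 higher and 0 lower without shCaf1 replicate 1 (2.69%), 3 higher and 0 lower without shMiwi replicate 2 (6.89%), and 5 higher and 1 lower without shMiwi replicate 1 (12.7%). Pias1, the lower gene, thus did not pass without shMiwi replicate 2 or either shCaf1 array.

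Against the control arrays the direction depended on the scale. Each member's probe set was chosen for a high mean on the shRNA arrays, which favours counts of higher members. The shares of all probe sets carry no such choice. On the deposited scale 16 of 31 members were lower on all 4 shRNA arrays than on both control arrays (50.1% of all probe sets were) and 2 were higher (17.4%). As percentiles within each array, 9 were lower (27.9% of all) and 7 higher (24.8%). On the scale of the hybridization controls 0 were lower (0.351%) and 27 higher (74.6%). Of the members, 51.6% were lower and 6.45% higher as deposited, 29.0% and 22.6% as percentiles, and 87.1% higher on the hybridization scale. Without control 1 the deposited scale had 23 lower (60.8% of all) and 6 higher (26.0%), the percentiles 14 (44.8%) and 8 (36.5%), and the hybridization scale 0 (2.78%) and 27 (77.8%). Without control 2 these were 20 lower (65.1%) and 7 higher (26.5%), then 12 (45.3%) and 16 (39.7%), then 0 (0.704%) and 31 (89.0%). As percentiles, the higher members thus outnumbered the lower ones without control 2 and not otherwise.

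**Figure D3:**
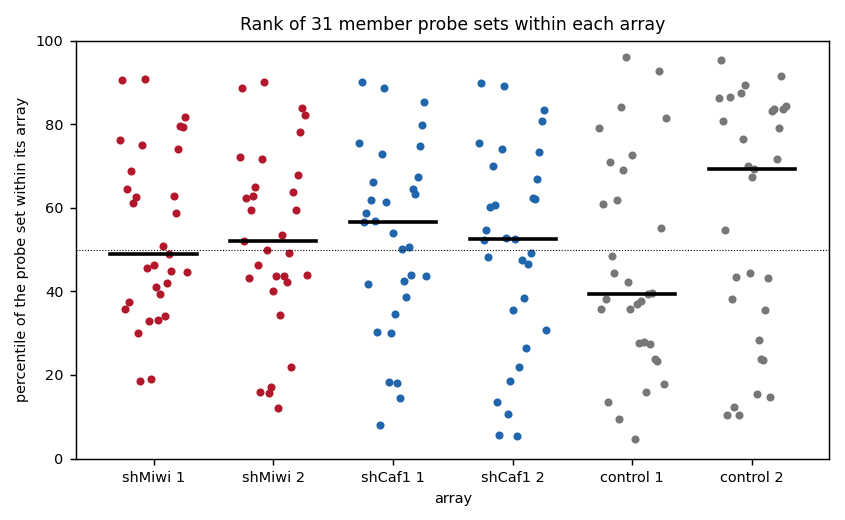
Percentile of each of the 31 member probe sets among all probe sets of its array (vertical axis), by array, with the members' median as a bar and the array median as a dotted line. The members' median is 49.0 and 52.1 in shMiwi, 56.7 and 52.6 in shCaf1, 39.4 on control 1 and 69.3 on control 2.

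The percentiles show how far the control arrays differed from each other. The members' median percentile was 39.4 on control 1 and 69.3 on control 2, and the shRNA arrays lay between. The lower members on the percentile scale were Ddx58, Oas1a, Oas2, Oas3, Oasl1, Rsad2, Adar, Irf1 and Irf7. Irf7 stood at percentiles 35.7 and 52.1 in shMiwi, 56.7 and 52.2 in shCaf1, and 60.9 and 80.7 in control. Rsad2 stood at 44.6 and 44.0 in shMiwi, 43.7 and 30.7 in shCaf1, and 81.4 and 84.4 in control. The higher members on that scale were Ifit3, Gbp2, Mx1, Eif2ak2, Ifih1, Trim25 and Stat2, by probe sets chosen for their signal on the shRNA arrays. The other probe sets of Gbp2, Eif2ak2 and Stat2 were not higher in this way, and those of Trim25 were.

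In limma on all 6 arrays, 20 of 31 members were tested against control, and 7 passed in shMiwi (43.2% of all probe sets did) and 7 in shCaf1 (41.5%), 1 higher and 6 lower each time. By direction, 16.9% of all probe sets were higher and 26.4% lower in shMiwi, and 15.5% and 26.0% in shCaf1. The same control arrays stand in both comparisons. The 6 that fell, by the probe sets that stand for them, were Oas1a, Rsad2, Irf7, Oasl1, Ddx58 and Adar. The other probe sets of Rsad2 and Adar were lower too, though not all were tested. Another of Ddx58 stood at -0.03 in shMiwi and 0.07 in shCaf1, and its last at -3.81 and -3.01, all untested. A second probe set of Ifi35 passed as lower (-2.52 in shMiwi, adjusted p = 0.0306, and -2.31 in shCaf1, adjusted p = 0.0408). The last of Ifi35 showed 1.72 and 1.57 and did not pass. This fit kept probe sets by their mean over all 6 arrays, so dim members could enter through high control signals. Rsad2 and Oasl1, with mean log2 signals of 6.01 and 6.2 on the shRNA arrays, were tested. Stat2 and Oasl2, at 6.1 and 6.13, were not. Falls of such dim members were thus partly set by the filter. Oas1a was lower by a log2 difference of -4.33 in shMiwi (SE 0.47, adjusted p = 0.00496, n = 2 per group) and of -3.63 in shCaf1 (adjusted p = 0.00684). Rsad2 was lower by -3.60 in shMiwi (SE 0.41, adjusted p = 0.00512) and by -3.88 in shCaf1 (adjusted p = 0.0057). Each of the 6 falls changed sign on the scale of the hybridization controls, to 0.56 and 0.93 for Oas1a and to 0.92 and 0.34 for Rsad2 in shMiwi and shCaf1.

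Trim25 was the member that rose, by 1.71 in shMiwi (SE 0.33, adjusted p = 0.0132) and by 1.40 in shCaf1 (SE 0.33, adjusted p = 0.0241), with 6.02 and 5.32 on the scale of the hybridization controls. It did not pass without either array of the other hairpin (adjusted p = 0.0668 and 0.0667 in shMiwi, 0.0935 and 0.093 in shCaf1), nor in shCaf1 with the replicate number as a block (adjusted p = 0.0535). This Trim25 probe set is of a kind that can cross-hybridise. Another Trim25 probe set passed in shMiwi (1.49, adjusted p = 0.017) and not in shCaf1 (0.81, adjusted p = 0.0972). The last passed in neither (1.14 in shMiwi, adjusted p = 0.0717, and 1.16 in shCaf1, adjusted p = 0.0695). The deposited differences of Isg20, 1.77 and 1.99, did not pass (adjusted p = 0.235 and 0.192), its control arrays being 3.30 apart on the log2 scale. The median of all probe sets was -0.20 in shMiwi and -0.25 in shCaf1 as deposited, and 3.58 and 3.15 after hybridization scaling, beside member medians of 3.29 and 2.61. Without either array of the group compared, 0 members passed in limma and 0 of all 27022 probe sets did (8750 to 9650 of them had an unadjusted p under 0.05), and the calls of all probe sets moved with those of the members when a control array was left out. Without control 1, 14 members passed in shMiwi (79.7% of all probe sets did) and 18 in shCaf1 (78.5%), and without control 2 it was 15 in shMiwi (84.0%) and 17 in shCaf1 (83.9%). The fit gives all groups 1 spread, whereas the median distance between replicate arrays over all probe sets was 0.26 in shMiwi, 0.25 in shCaf1 and 1.30 in control on the log2 scale.

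**Figure D4:**
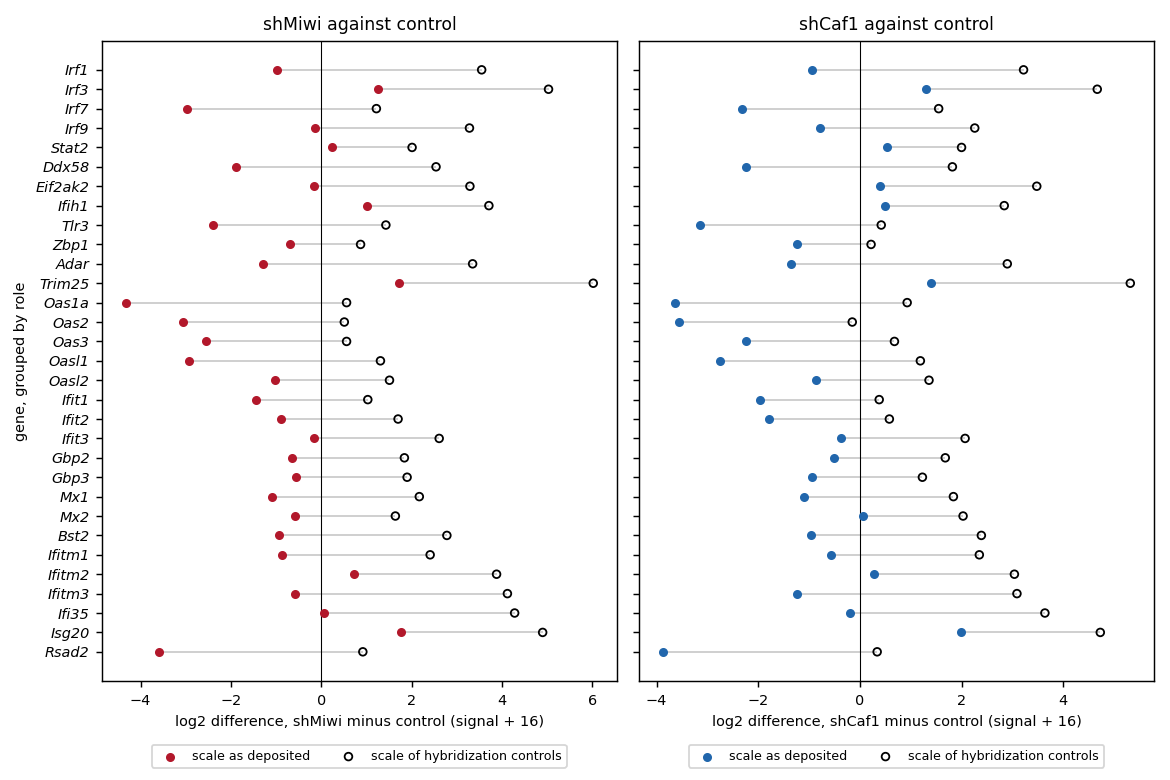
Log2 difference of signal + 16 against control (horizontal axes) for the 31 members, shMiwi on the left and shCaf1 on the right. Filled points are on the deposited scale and open points on the scale of the hybridization controls, where all points but Oas2 in shCaf1 (-0.15) lie above 0.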

How the data were processed

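The deposited table holds 1 MAS5 signal intensity per probe set and array for 45101 probe sets on 6 Affymetrix mouse arrays. MAS5 is named in the submitters' processing notes, without a version or settings; no genome build enters. As deposited, the intensities of each array have a 2% trimmed mean of 500, by calculation from the file. Control probe sets (64) were left out. Of the 45037 others, 34945 name 1 gene in the platform annotation, 932 several and 9160 none; 99.4% of the first matched RefSeq (GRCm38.p6) by gene identifier, with 0 changed symbols. Signals were taken to log2 after adding 16, which understates fold changes of dim probe sets. limma 3.58.1 (in R 4.3.3, with trended eBayes moderation, Benjamini-Hochberg adjustment and a threshold of 0.05) compared shMiwi with shCaf1 on 4 arrays, and each with control in 1 model of all 6. Each fit kept the 27022 probe sets above the 40th percentile of mean log2 over its arrays. The comparison of shMiwi with shCaf1 was tried on simulated data with the spread of the shRNA arrays. The comparisons with control were not simulated. Hybridization scaling divided each array by the geometric mean of 18 control probe sets. Of the 31 member probe sets, 4 carry a suffix (s or x) that marks possible cross-hybridisation. The members, lists, yardstick genes and tests were chosen with earlier results of these data known. The rule for named genes takes all members, and from each other list those that passed, at most the 3 with the greatest difference, and the brightest. Added constants, filters, scalings, variance models, thresholds, probe set choices, a replicate block and left-out arrays were tried as alternatives; other scales and left-out controls for the counts without overlap were added after seeing the data. The number of arrays limits the precision.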

Additional observations from a re-analysis of the deposited data

How the results depend on the processing

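With 0 members called between shMiwi and shCaf1, the count of 24 was 7 with hybridization control scaling (27.4% of all probe sets were called), 2 with the replicate block (Irf9 and Ifitm3; 20% of all), 1 at an adjusted p under 0.1 (3725 of all 27022), and 0 to 2 leaving out 1 array (0.77% to 12.7% of all). Of the 72 other pathway genes 3 were called. At the same shares of all where settings recur, the count was 0 with 6 arrays sharing 1 spread (0% of all), 0 without an intensity trend (0.0592%), 1 with median centring (4.70%), 1 without a filter (1.26%), 8 at an adjusted p under 0.1, 13 with the replicate block, 23 with hybridization scaling, and 0 to 6 leaving out 1 array. Against control, where 7 were called, shMiwi had 4 of 20 with quantile normalization (35.2% of all), 17 with hybridization scaling (90.5%) and 0 to 15 leaving out 1 array (0% to 84%). For shCaf1 these were 11 without a filter (38.3%), 4 with median centring (44%), 18 with hybridization scaling (87.6%) and 0 to 18 leaving out 1 array (0% to 83.9%). Leaving out either array of the other hairpin gave 4 in both comparisons, 0 higher and 4 lower. With median centring the 7 calls of shMiwi were 5 higher and 2 lower, and the 4 of shCaf1 were 2 and 2. Members above the off-tissue level numbered 3, and 14 at its 75th percentile. Members lower than both control arrays numbered 16, but 0 on the hybridization scale and 9 as percentiles (20 to 23 leaving out 1 control array). Members higher numbered 2, but 27 and 7 on those scales (6 to 7 leaving out 1 control array).

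Calls against control that changed sign on the hybridization scale were, in shMiwi, Irf7 (1.22), Ddx58 (2.54), Adar (3.35), Oas1a (0.56), Oasl1 (1.31) and Rsad2 (0.92), and in shCaf1 Irf7 (1.55), Ddx58 (1.82), Adar (2.90), Oas1a (0.93), Oasl1 (1.19) and Rsad2 (0.34). With median centring Adar changed sign too, to 0.30 in shMiwi and 0.22 in shCaf1. Hybridization scaling divides all signals of an array by 1 factor. The cause was not tested. The replicate numbers share only a number: deviations of same-numbered arrays correlated at 0.181 between shMiwi and shCaf1, 0.004 between shMiwi and control and 0.061 between shCaf1 and control, and all calls between the hairpins numbered 5392 with the block and 1916 without. Where 1 array of a group was left out, the lone one is assumed to vary like the others. With 2 arrays a group, small differences of dim members could not be measured.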
